A study of Homo sapiens with 6 samples.

Results

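Tubulins and stathmin are described here as 10 genes taken by symbol: the alpha tubulins TUBA1A, TUBA1B, TUBA1C and TUBA4A, the beta tubulins TUBB, TUBB2A, TUBB3, TUBB4B and TUBB6, and STMN1, which encodes stathmin. Of the 10, 8 matched a row among the 26195 gene symbols of the 6 tables, and TUBB and TUBB3 were not analysed here. The cells were PC9, a long-established line from a human lung adenocarcinoma whose EGFR carries an activating mutation. They were profiled by Drop-seq, in which cells and barcoded beads meet in droplets and each transcript is captured near its 3′ end with a unique molecular identifier (UMI). Each condition had 1 library. 4 libraries received 2 µM erlotinib, an EGFR kinase inhibitor, for 1 day by the labels. The first of them also received 6.25 µM of the KDM5 inhibitor CPI-455 over 4 days and was not transduced; for it the labels also place the erlotinib on the day after seeding in CPI-455, so when it was given and for how long is not settled. The next carried a lentiviral KDM5A shRNA, with erlotinib begun 4 days after transduction. Another was labelled as carrying lentiviruses with KDM5A and KDM5B shRNAs, with erlotinib begun after 5 days. The last carried a lentiviral KDM5A cDNA driven by the CMV promoter, with erlotinib begun after 6 days. The drug-free libraries were cells transduced with a scrambled shRNA and untreated cells. Transduced cells were moved to medium with 10% serum, and the CPI-455 and untreated cells were in 5% serum. No library had erlotinib without a KDM5 manipulation, so an effect of erlotinib and an effect of the KDM5 manipulations common to the 4 libraries cannot be told apart. The labels name no separate cultures.

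Kept cells (at least 500 UMIs and at most 20% mitochondrial UMIs) numbered 131 to 374 in the erlotinib libraries, 263 in the scrambled library and 1166 in the untreated library. They held 590091 to 1596385 UMIs per erlotinib library, 1294422 in the scrambled library and 3956647 in the untreated library. The median depth per cell was 2985.5 to 3762.5 UMIs with erlotinib, 3343 in the scrambled library and 1493.5 in the untreated library. Mitochondrial transcripts were 7.04% to 9.18% of UMIs with erlotinib, 5.03% in the scrambled library and 3.98% in the untreated library, and 1 pair of libraries shared 1 barcode. Processed pseudogenes took 2.90% of UMIs with CPI-455, 1.32% with KDM5A shRNA, 2.49% in the library labelled KDM5A and KDM5B shRNA and 3.42% for KDM5A cDNA, against 1.38% in the scrambled library and 1.02% in the untreated library; their part in the results was not tested beyond a fit with this split as a term. KDM5A was at 56.4 CPM (UMIs scaled to a library total of 1000000) with its shRNA, 41.3 in the library labelled KDM5A and KDM5B shRNA and 164 with its cDNA. Without a KDM5A construct it was at 81.9 CPM in the scrambled library, 121 CPM in the untreated library and 120 CPM with CPI-455. The 95% counting intervals with KDM5A shRNA (45.3 to 69.3) and in the scrambled library (67.0 to 99.0) overlapped. KDM5B was at 138 CPM in the library labelled KDM5A and KDM5B shRNA, against 46.4 in the scrambled library, so no fall against that library was seen. The other erlotinib libraries lay between 94.9 and 151 CPM. No erlotinib library carried a scrambled shRNA, so a knockdown of KDM5B cannot be judged from these levels. All 6 epithelial markers with a row were detected in every library, at a summed 7877 to 11787 CPM. Leukocyte markers gave 0 to 3 UMIs and fibroblast and endothelial markers 0 to 20 UMIs per library. The neuronal list was carried by MAP2, a microtubule-binding protein, and no more than 3 of its 4 genes with a row were detected in a library.

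Microtubules are hollow filaments built from dimers of alpha and beta tubulin, and they grow and shrink at their ends. Each subunit is encoded by several genes, the isotypes, whose proteins differ mainly in the C-terminal tail, where enzymes add and remove modifications. Cells degrade tubulin messenger RNA when free tubulin dimers are in excess. Stathmin binds tubulin dimers and promotes filament shrinkage, and its activity is switched off by phosphorylation during mitosis. The alpha genes are close relatives: the coding sequences of TUBA1A and TUBA1B were 97.2% identical in GENCODE transcripts, those of TUBA1B and TUBA1C 96.8% and those of TUBA1A and TUBA1C 95.9%. The beta genes were 83.6% to 87.2% identical. The parts after the stop codon, where 3′-end tags mostly fall, shared no run longer than 10 bases between any pair of the 7 tubulin members, although counts of reads that reach into the coding part could be split between genes in a way not stated.

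The promoters of TUBA1B, TUBB4B, STMN1 and TUBA1A are shown because these genes carried the largest falls, a smaller fall and the single rise. All 4 are from RefSeq on GRCh38.p14, on the gene's own strand, from 250 bases before to 50 bases after the start. They lie at chr12:49131346-49131645 on the minus strand, chr9:137241037-137241336 on the plus strand, chr1:25906370-25906669 on the minus strand (the first of 3 entries for STMN1) and chr12:49189031-49189330 on the minus strand. Capitals mark matches on either strand to letters of known promoter elements. The CCAAT box was searched by the letters of its name. For the GC box the letters were GGGCGG, and for the TATA box TATAAA. An E2F-type site was searched as TTTGGCGC or TTTCCCGC. The cell cycle homology region, an element of genes active in late cycle, was searched as TTTGAA.
TUBA1B: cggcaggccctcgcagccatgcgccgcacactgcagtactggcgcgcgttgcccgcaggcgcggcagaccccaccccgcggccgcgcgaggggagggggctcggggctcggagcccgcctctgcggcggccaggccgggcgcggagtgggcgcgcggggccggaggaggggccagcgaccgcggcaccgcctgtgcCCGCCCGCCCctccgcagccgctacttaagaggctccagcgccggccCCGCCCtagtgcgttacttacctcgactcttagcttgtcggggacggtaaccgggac
TUBB4B: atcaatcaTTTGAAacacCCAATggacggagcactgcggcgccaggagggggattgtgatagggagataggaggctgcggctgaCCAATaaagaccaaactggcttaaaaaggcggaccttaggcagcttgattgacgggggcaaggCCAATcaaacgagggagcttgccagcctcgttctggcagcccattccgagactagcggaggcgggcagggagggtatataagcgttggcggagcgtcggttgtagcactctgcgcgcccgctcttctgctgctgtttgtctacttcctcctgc
STMN1: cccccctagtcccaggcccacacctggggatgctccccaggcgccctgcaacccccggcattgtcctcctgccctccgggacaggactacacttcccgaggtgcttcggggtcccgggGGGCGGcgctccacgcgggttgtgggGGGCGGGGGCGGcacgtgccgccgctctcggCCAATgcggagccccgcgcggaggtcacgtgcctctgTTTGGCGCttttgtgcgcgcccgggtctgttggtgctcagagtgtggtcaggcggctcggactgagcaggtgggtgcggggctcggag
TUBA1A: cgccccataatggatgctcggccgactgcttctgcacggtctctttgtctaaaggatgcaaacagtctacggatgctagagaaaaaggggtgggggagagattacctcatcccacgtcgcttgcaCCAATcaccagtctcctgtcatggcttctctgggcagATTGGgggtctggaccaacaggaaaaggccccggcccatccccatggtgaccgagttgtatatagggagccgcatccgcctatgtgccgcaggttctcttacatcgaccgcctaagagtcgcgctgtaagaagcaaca
The TUBA1B window held 3 GC boxes, 2 of which share bases, and no CCAAT box, and 77.0% of its bases were G or C. The TUBB4B window held 3 CCAAT boxes, starting 232, 166 and 103 bases before the start, and a TTTGAA 242 bases before it. The STMN1 window held a CCAAT box 75 bases and a TTTGGCGC 38 bases before the start, beside 3 GC boxes. The TUBA1A window held CCAAT on the plus and on the opposite strand, 125 and 88 bases before the start, and no GC box. Of all 35116 promoter windows in the table, 34.6% held a CCAAT box, 45.0% a GC box, 11.5% a TATAAA, which none of these 4 windows held, 15.2% a TTTGAA and 2.27% an E2F-type site. A match is a description of letters and not of binding.

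With erlotinib, 4 of the 7 tubulins with a row and STMN1 fell. TUBA1B and TUBB4B fell most, TUBA1C and TUBB2A less, and STMN1 least, while TUBA1A, which is best known as the alpha tubulin of developing neurons, rose, and TUBA4A and TUBB6 did not pass the test. All 8 genes passed the filter on low counts, and 5 were called lower and 1 higher by edgeR at an adjusted p below 0.05, against 13.5% of the 10445 genes tested called lower and 10.0% called higher. The median log2 fold was -0.97 over the 8 and 0.0068 over all genes tested. All 4 erlotinib libraries lay below both drug-free libraries for 5 of the 8 genes, against 26.7% of all genes tested, and above both for 1, against 18.6%. With the libraries' split by processed pseudogenes as a term, edgeR called 2 of the 8 lower, TUBA1B and TUBB4B, and TUBA1A higher, against 5.85% of all genes called lower and 4.69% higher in that fit. In the fit with the split, KDM5A shRNA was the only erlotinib library that set the erlotinib fold. Its calls thus rest on that library against the drug-free libraries and are no check on the 4 erlotinib libraries together. TUBA1A was highest in that library, at 147 CPM. Over the transduced libraries alone edgeR called 3 lower and 0 higher, against 7.93% and 4.44% of all genes. Leaving out 1 library at a time gave 3 to 5 lower and 0 to 1 higher, against 8.02% to 13.9% of all genes lower and 4.68% to 12.2% higher. In whole libraries, fewer cells of a kind and less RNA per cell cannot be told apart. The levels below are UMIs of 3′ ends and are not corrected for length, which such counts do not require.

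**Figure D1:**
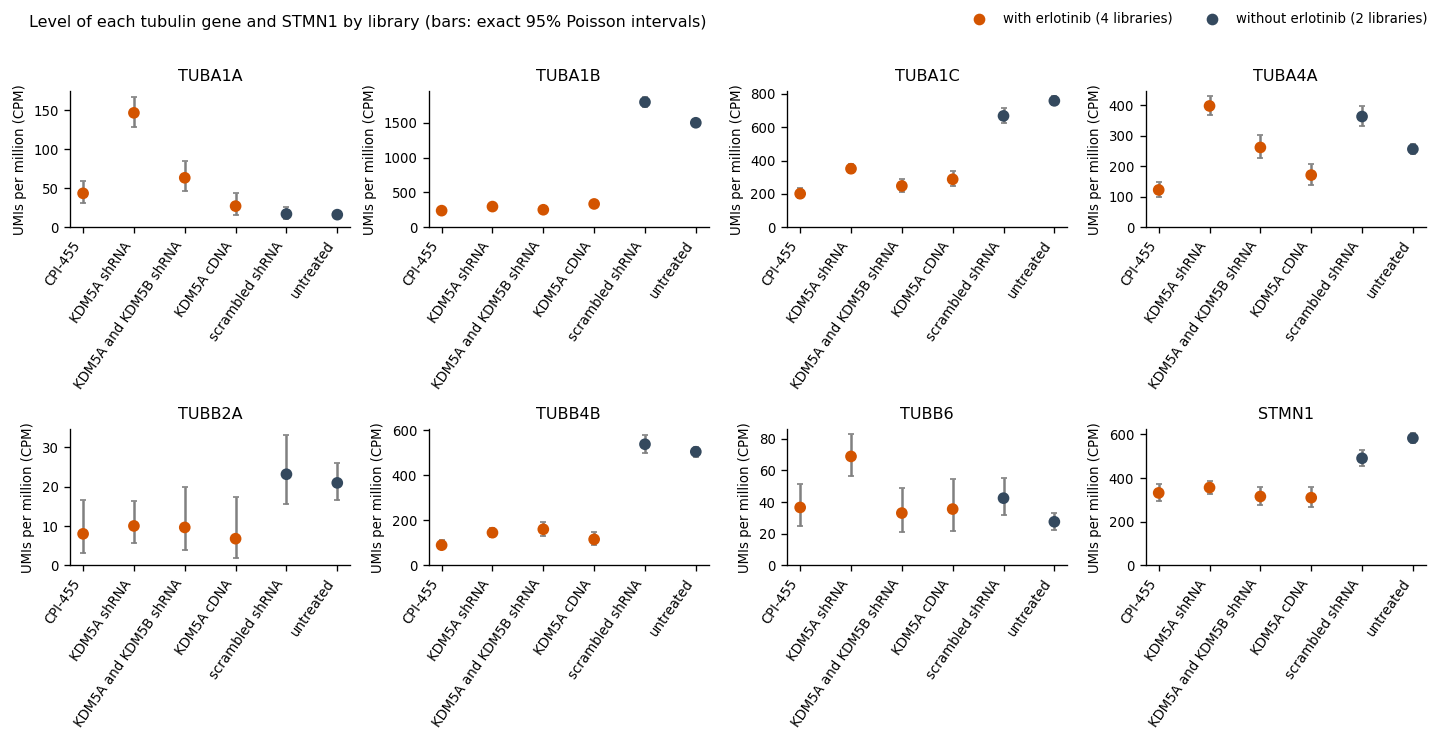
Level of each gene in the 6 libraries in CPM on a linear axis from 0, with exact 95% Poisson intervals that cover counting error only; erlotinib libraries are orange and stand left of the drug-free libraries. TUBA1B lies between 239 and 336 CPM in the erlotinib libraries, below 1799 and 1502 CPM in the drug-free libraries, and TUBA1A is highest with KDM5A shRNA, at 147 CPM.

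TUBA1B, the most abundant alpha isotype in drug-free PC9 cells, was at 239 CPM with CPI-455, 298 CPM with KDM5A shRNA, 252 CPM in the library labelled KDM5A and KDM5B shRNA and 336 CPM with KDM5A cDNA, against 1799 CPM in the scrambled library and 1502 CPM in the untreated library. The 4 erlotinib libraries lay together, far below both others, and neighbours in their order did not differ beyond counting error. Further apart in that order, CPI-455 over KDM5A cDNA gave a log2 ratio of -0.49 (-0.78 to -0.20). CPI-455 over KDM5A shRNA gave -0.31 (-0.56 to -0.08), and both intervals exclude 0. By edgeR the log2 fold was -2.52 ± 0.21 (SE) with an adjusted p of 7.72e-05.

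TUBA1C, a broadly expressed alpha isotype, was at 201 CPM with CPI-455, 351 CPM with KDM5A shRNA, 248 CPM in the library labelled KDM5A and KDM5B shRNA and 288 CPM with KDM5A cDNA, against 668 CPM in the scrambled library and 759 CPM in the untreated library. The groups did not overlap, and the edgeR log2 fold was -1.34 ± 0.24 (SE) with an adjusted p of 0.00334. In the 4 libraries with erlotinib its level was thus close to that of TUBA1B, whereas in both drug-free libraries TUBA1B stood well above it.

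TUBA1A ran the other way. It was at 43.5 CPM with CPI-455, 147 CPM with KDM5A shRNA, 63.4 CPM in the library labelled KDM5A and KDM5B shRNA and 27.1 CPM with KDM5A cDNA, against 17.0 CPM in the scrambled library and 16.2 CPM in the untreated library. The KDM5A shRNA library was highest, and below it no neighbours in the order of levels differed beyond counting error. Its edgeR log2 fold was 2.19 ± 0.64 (SE) with an adjusted p of 0.0422. The fold was 1.49 without the KDM5A shRNA library, and the call was lost without the library labelled KDM5A and KDM5B shRNA, without the scrambled library or without the untreated library, with edgeR adjusted p-values of 0.0742, 0.198 and 0.247. The neuronal marker list summed to 174 to 321 CPM with erlotinib, against 32.4 CPM in the scrambled library and 85.7 CPM in the untreated library. MAP2 carried this sum, and the other 3 neuronal markers with a row, ELAVL3, ELAVL4 and NEFL, had 0 to 2 UMIs in every library.

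TUBA4A, an isotype encoded with no C-terminal tyrosine, was at 122 CPM with CPI-455, 398 CPM with KDM5A shRNA, 262 CPM in the library labelled KDM5A and KDM5B shRNA and 171 CPM with KDM5A cDNA, against 363 CPM in the scrambled library and 256 CPM in the untreated library. The groups overlapped, and the edgeR log2 fold was -0.32 ± 0.42 (SE) with an adjusted p of 0.612. The log2 ratio of KDM5A shRNA over scrambled was 0.13 (-0.04 to 0.31), an interval that includes 0, and the CPI-455 library was lowest of the 6.

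Among the beta tubulins, TUBB4B, a broadly expressed isotype also used in cilia, was at 89.3 CPM with CPI-455, 145 CPM with KDM5A shRNA, 160 CPM in the library labelled KDM5A and KDM5B shRNA and 115 CPM with KDM5A cDNA, against 537 CPM in the scrambled library and 504 CPM in the untreated library. The 4 erlotinib libraries lay below both drug-free libraries, and the edgeR log2 fold was -1.99 ± 0.24 (SE) with an adjusted p of 0.000487.

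TUBB2A, an isotype prominent in neurons, was scarce, at 8.01, 10.0, 9.64 and 6.78 CPM in the erlotinib libraries (CPI-455, KDM5A shRNA, the library labelled KDM5A and KDM5B shRNA, and KDM5A cDNA), against 23.2 CPM in the scrambled library and 21.0 CPM in the untreated library. It rested on 4 to 16 UMIs per erlotinib library. The edgeR log2 fold was -1.27 ± 0.35 (SE) with an adjusted p of 0.0259, and DESeq2 gave an adjusted p of 0.0772. The edgeR call was also lost without the CPI-455 library, the library labelled KDM5A and KDM5B shRNA, the scrambled library or the untreated library, with adjusted p-values of 0.0575, 0.0621, 0.122 and 0.0874. The edgeR adjusted p was 0.140 in the transduced libraries alone and 0.227 with the pseudogene split as a term.

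TUBB6, a widely expressed isotype whose protein makes microtubules less stable when overproduced, was at 36.6 CPM with CPI-455, 68.9 CPM with KDM5A shRNA, 33.1 CPM in the library labelled KDM5A and KDM5B shRNA and 35.6 CPM with KDM5A cDNA, against 42.5 CPM in the scrambled library and 27.5 CPM in the untreated library. The groups overlapped, and the edgeR log2 fold was 0.43 ± 0.36 (SE) with an adjusted p of 0.413. The KDM5A shRNA library stood above the other 3 erlotinib libraries.

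STMN1, the stathmin gene, was at 332 CPM with CPI-455, 356 CPM with KDM5A shRNA, 316 CPM in the library labelled KDM5A and KDM5B shRNA and 310 CPM with KDM5A cDNA, against 491 CPM in the scrambled library and 583 CPM in the untreated library. The erlotinib libraries lay close together and below both others. The edgeR log2 fold was -0.66 ± 0.18 (SE) with an adjusted p of 0.0265, and leaving out the CPI-455, KDM5A cDNA or untreated library, or the library labelled KDM5A and KDM5B shRNA, raised the edgeR adjusted p to 0.0554 to 0.113.

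**Figure D2:**
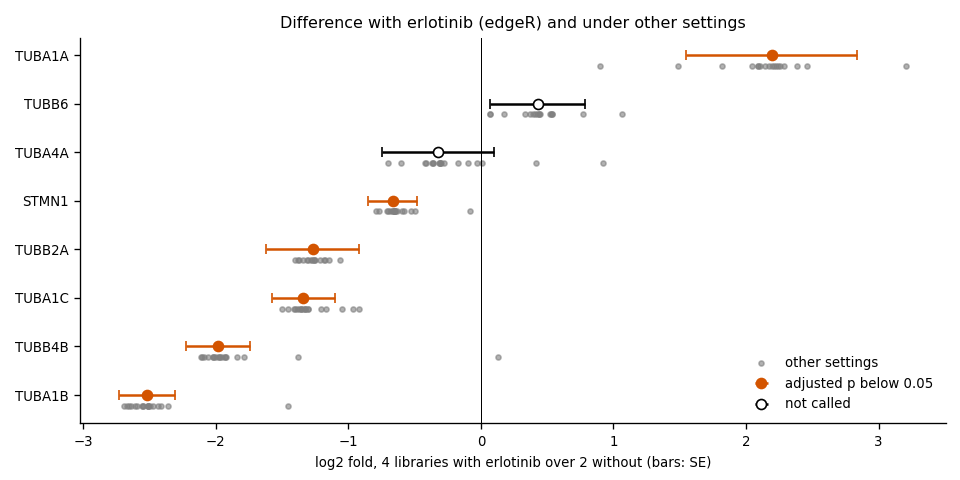
Fitted log2 fold of 4 libraries with erlotinib over 2 without, per gene, with its SE (large points; filled orange where the edgeR adjusted p is below 0.05) and the fold under every other setting (small grey points). TUBA1B and TUBB4B lie furthest left, at -2.52 and -1.99, and TUBA1A is the single called gene on the right, at 2.19.

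The makeup of the alpha tubulin transcripts differed with these levels. TUBA1B supplied 39.4% of the UMIs of the 4 alpha members with CPI-455, 24.9% with KDM5A shRNA, 30.6% in the library labelled KDM5A and KDM5B shRNA and 40.8% for KDM5A cDNA, against 63.2% in the scrambled library and 59.3% in the untreated library. TUBA4A supplied 20.2% to 33.3% with erlotinib, against 12.8% in the scrambled library and 10.1% in the untreated library. TUBA1A supplied 3.30% to 12.3% with erlotinib, against 0.597% in the scrambled library and 0.638% in the untreated library. The share of TUBA1C was 29.4% to 35.1% with erlotinib, against 23.5% in the scrambled library and 29.9% in the untreated library, and overlapped. Of the 3 beta members, TUBB4B supplied 64.7% to 78.9% of UMIs with erlotinib, against 89.1% in the scrambled library and 91.2% in the untreated library, and TUBB6 supplied 16.3% to 30.8% with erlotinib, against 7.05% in the scrambled library and 4.99% in the untreated library. The beta shares leave out TUBB and TUBB3. These shares do not depend on library totals and were given no test. They restate the levels above and are no separate result. A lower TUBA1B or TUBB4B raises the shares of the other members, and neither TUBA4A nor TUBB6 was called in its own level.

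**Figure D3:**
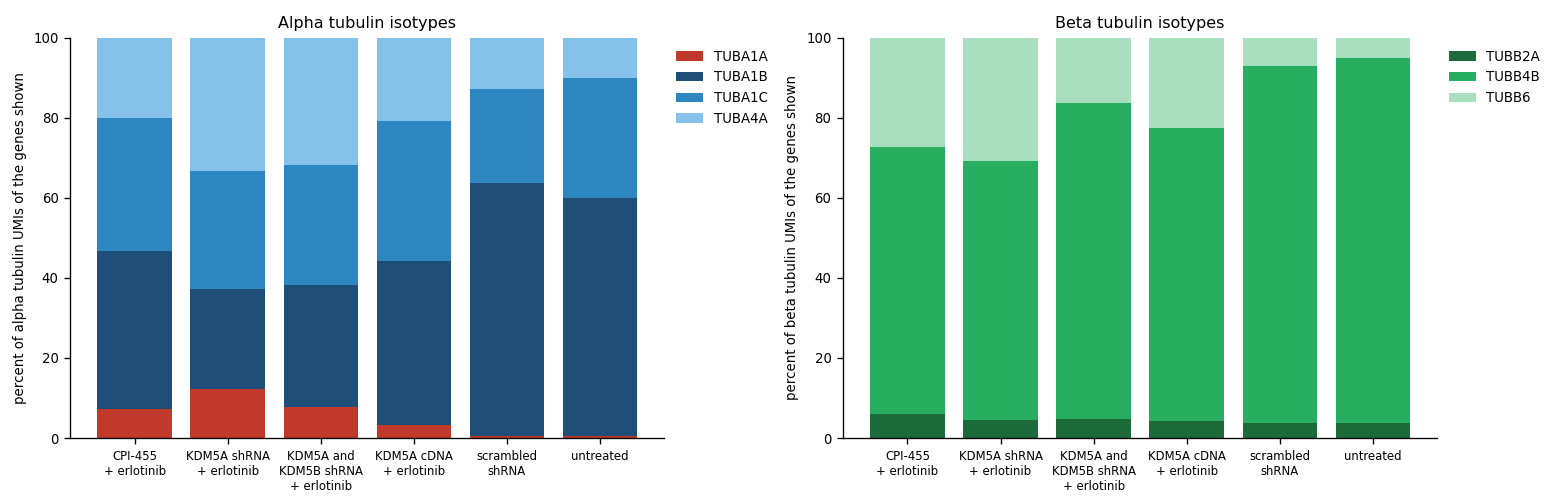
Share of each alpha isotype (left) and beta isotype (right) in the UMIs of the members of its family with a row, by library, as stacked bars that sum to 100 percent. TUBA1B takes over 59% of alpha UMIs in both drug-free libraries and under 41% in the 4 erlotinib libraries.

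Summed over the 4 alpha members, the level was 607 CPM with CPI-455, 1193 CPM with KDM5A shRNA, 825 CPM in the library labelled KDM5A and KDM5B shRNA and 822 CPM with KDM5A cDNA, against 2848 CPM in the scrambled library and 2533 CPM in the untreated library. The 3 beta members summed to 134 to 224 CPM with erlotinib, against 603 CPM in the scrambled library and 552 CPM in the untreated library. Symbols of tubulin pseudogenes and copies, which near-identical reads can reach, held 0.262% to 1.67% as many UMIs as the alpha members with erlotinib, against 0.298% in the scrambled library and 0.0200% in the untreated library. For the beta members these figures were 2.52% to 10.3% with erlotinib, against 1.67% in the scrambled library and 1.28% in the untreated library.

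Single libraries were compared as ratios with exact 95% intervals that cover counting error only, and without a test, since each condition had 1 library. The 3 transduced erlotinib libraries share the scrambled library as their control. For TUBA1A the log2 ratio over scrambled was 3.11 (2.48 to 3.81) with KDM5A shRNA, 1.90 (1.14 to 2.70) in the library labelled KDM5A and KDM5B shRNA and 0.67 (-0.35 to 1.67) for KDM5A cDNA. KDM5A shRNA over KDM5A cDNA, both with erlotinib, gave 2.43 (1.70 to 3.27) for TUBA1A, 1.22 (0.91 to 1.53) for TUBA4A, 0.95 (0.27 to 1.70) for TUBB6 and 0.29 (0.04 to 0.54) for TUBA1C. For TUBA1B the same comparison gave -0.17 (-0.42 to 0.07) and for STMN1 0.20 (-0.04 to 0.45), intervals that include 0. All these ratios use library totals alone. Scaling factors of the kind used with edgeR were 0.903 for KDM5A shRNA and 1.06 for KDM5A cDNA. Whether an interval near 0 includes 0 can therefore depend on the scaling. The library labelled KDM5A and KDM5B shRNA over KDM5A shRNA gave -1.21 for TUBA1A, -0.60 for TUBA4A, -1.06 for TUBB6 and -0.50 (-0.75 to -0.26) for TUBA1C. CPI-455 over KDM5A shRNA gave -1.75, -1.70, -0.91 and -0.80 (-1.06 to -0.56) for the same genes. So TUBA1A, TUBA4A, TUBB6 and, by less, TUBA1C were higher with KDM5A shRNA than in each other erlotinib library, with intervals that exclude 0. The erlotinib start differed between the KDM5A shRNA and KDM5A cDNA libraries by 2 days after transduction. CPI-455 over untreated, both without virus, gave -2.65 (-2.86 to -2.45) for TUBA1B, -1.91 (-2.14 to -1.69) for TUBA1C, -2.50 (-2.84 to -2.17) for TUBB4B and 1.43 (0.81 to 2.03) for TUBA1A. Between the drug-free libraries, scrambled over untreated gave 0.26 (0.19 to 0.33) for TUBA1B, 0.50 (0.34 to 0.66) for TUBA4A, 0.63 (0.13 to 1.11) for TUBB6 and -0.25 (-0.38 to -0.12) for STMN1. The TUBA1B difference was far smaller than its fall with erlotinib. Among the erlotinib libraries the 4 pairs compared gave -1.70 to 1.22 for TUBA4A and -1.06 to 0.95 for TUBB6.

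Cells with many transcripts of G2/M genes, which act in late cycle and mitosis, were next set against cells with few. Among cells with at least 1000 UMIs, the highest 25% by share of UMIs from the G2/M list were compared with the lowest 25%, as a range of a score and not as cell types. In untreated cells (206 cells each, limits 1.47% and 0.262%) TUBA1B was at 2033 CPM in the high and 594 CPM in the low cells, a log2 ratio of 1.77 (1.63 to 1.92). The ratio was 2.24 (1.99 to 2.51) for TUBB4B, 1.62 (1.44 to 1.80) for TUBA1C and 1.68 (1.46 to 1.92) for STMN1. It was 0.56 (0.28 to 0.85) for TUBA4A, and TUBA1A was lower in the high cells, with 11.6 CPM (12 UMIs) there and 33.0 CPM (26 UMIs) in the low cells. Its log2 ratio was -1.51 (-2.63 to -0.47), and -1.13 (-2.30 to -0.03) without the cell with the most TUBA1A UMIs. In 57 and 42 cells the score lay within 10% of the upper and lower limit. The scrambled library (56 cells each, limits 0.861% and 0.421%) showed less: 0.69 (0.36 to 1.03) for TUBB4B, 0.35 (0.0048 to 0.69) for STMN1 and 0.10 (-0.09 to 0.28) for TUBA1B, whose level was 1705 CPM in the high and 1595 CPM in the low cells. The difference between the 2 libraries was not tested.

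The same classes within the erlotinib libraries were added after the data had been examined. TUBA1B was at 515 CPM in the high and 113 CPM in the low cells with CPI-455, at 350 and 263 CPM with KDM5A shRNA, at 636 and 51.1 CPM in the library labelled KDM5A and KDM5B shRNA and at 900 and 80.4 CPM with KDM5A cDNA. The log2 ratios were 2.19 (1.45 to 3.01), 0.41 (-0.0047 to 0.84), 3.64 (2.54 to 4.99) and 3.48 (2.56 to 4.58), on 18, 80, 7 and 10 UMIs in the low cells. The high cells held 46.1%, 26.4%, 51.7% and 64.1% of the TUBA1B UMIs of their libraries' cells, beside 21.6%, 22.6%, 20.7% and 24.3% of all UMIs, in the same order. In the KDM5A cDNA library 52 of these UMIs lay in 1 cell of the high class. Without the cell with the most TUBA1B UMIs in each library, the high cells held 41.5%, 23.5%, 47.0% and 51.0% of the TUBA1B UMIs, beside 20.6%, 22.3%, 19.6% and 19.8% of all UMIs, and KDM5A cDNA was at 684 CPM in the high cells with a log2 ratio of 3.09 (2.13 to 4.21). The share of TUBA1B UMIs thus lay well above that of all UMIs in 3 of the 4 libraries, and near it with KDM5A shRNA, where the log2 ratio was then 0.21 (-0.22 to 0.65). STMN1 had log2 ratios of 1.79 (1.24 to 2.36), 0.45 (0.07 to 0.83), 1.41 (0.80 to 2.05) and 2.11 (1.45 to 2.83), and TUBA1A in the KDM5A shRNA library was at 175 CPM in the high and 82.2 CPM in the low cells, the opposite order to untreated cells. The limits with erlotinib were low, at 0.133% to 0.199% for the high cells, all below the limits for the low cells in the drug-free libraries.

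**Figure D4:**
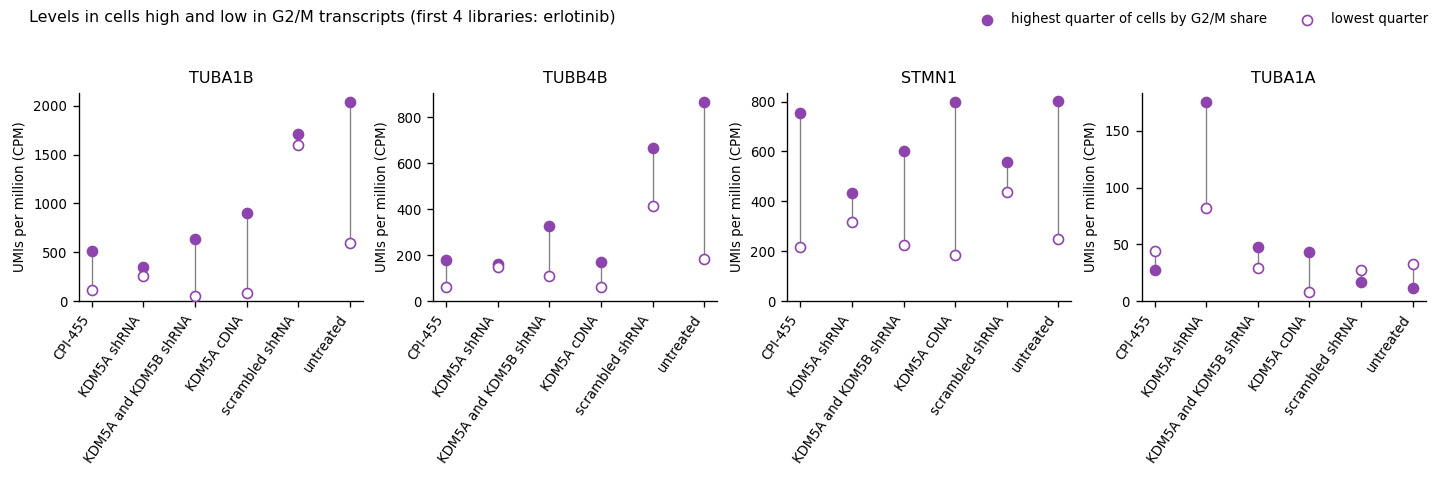
Level of 4 genes in CPM (linear axis from 0) in the highest and the lowest 25% of cells by G2/M share, filled and open points joined by a line, for each library with the 4 erlotinib libraries left. TUBA1B is at 2033 and 594 CPM in the high and low untreated cells, and the erlotinib libraries' high cells lie between 350 and 900 CPM.

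The low cells were also compared between conditions, a comparison chosen after the data had been examined. The lowest 25% of each library's cells by the share of G2/M and S phase transcripts held TUBA1B at 128 CPM with CPI-455, 235 CPM with KDM5A shRNA, 84.1 CPM in the library labelled KDM5A and KDM5B shRNA and 181 CPM with KDM5A cDNA, against 1558 CPM in the scrambled library and 533 CPM in the untreated library. TUBB4B was at 56.7, 137, 147 and 76.8 CPM in the same order of erlotinib libraries, against 409 CPM in the scrambled library and 169 CPM in the untreated library. In these cells 7 of the 8 members passed the filter, and edgeR called 2 lower and 0 higher, against 5.32% of the 4609 genes tested called lower and 5.92% higher. These were TUBA1B with a log2 fold of -2.67 ± 0.44 (SE) and an adjusted p of 0.00305, and TUBB4B with -1.38 ± 0.41 (SE) and an adjusted p of 0.0377. They rested on 18, 67, 12 and 26 TUBA1B UMIs and 8, 39, 21 and 11 TUBB4B UMIs in the erlotinib libraries, in the order above. TUBA1C had a log2 fold of -0.92 with an edgeR adjusted p of 0.0556, and STMN1 had -0.50 with an adjusted p of 0.329; its levels overlapped, at 140 to 294 CPM with erlotinib against 398 CPM in the scrambled library and 267 CPM in the untreated library. TUBA1A had 0.90 with an edgeR adjusted p of 0.360. The limit on the cycle share differed, at 0.0918% to 0.128% with erlotinib, 0.924% in the scrambled library and 0.582% in the untreated library, so the low cells of the drug-free libraries still held more cycle transcripts.

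The spread between cells was measured as the variance above that of random counting, divided by the squared mean, with each cell's expected count set by its depth. TUBA1B had a spread of 1.50 with CPI-455, 0.666 with KDM5A shRNA, 1.71 in the library labelled KDM5A and KDM5B shRNA and 3.04 for KDM5A cDNA, against 0.0807 in the scrambled library and 0.178 in the untreated library. The 4 erlotinib libraries lay above both drug-free libraries, and TUBA1B ranked above 99.1%, 96.0%, 99.4% and 99.9% of the genes with at least 200 CPM in its own library, against 47.1% in the scrambled library and 77.2% in the untreated library. With erlotinib TUBA1B lay near that limit, at 239 to 336 CPM, against 1799 CPM in the scrambled and 1502 CPM in the untreated library. The ranks thus compare unlike levels, and the part of the level in the spread was not tested. A single cell with 52 TUBA1B UMIs carried much of the KDM5A cDNA value, which was 0.872 without it. After thinning every cell to 1000 UMIs the values were -0.27 with CPI-455, 0.566 with KDM5A shRNA, 2.24 in the library labelled KDM5A and KDM5B shRNA and 1.19 for KDM5A cDNA, against 0.0393 in the scrambled library and 0.326 in the untreated library, so that the CPI-455 library no longer stood above them. With 4 libraries against 2, an exact two-sided permutation test cannot go below 0.133, and none was run.

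TUBB4B had a spread of 1.51, 0.386, 0.952 and 1.47 in the same order of erlotinib libraries, against 0.133 in the scrambled library and 0.338 in the untreated library. STMN1 had 0.854, 0.322, 0.409 and 0.924, against 0.179 and 0.254 in the scrambled and untreated libraries. Without the cell with the most UMIs, TUBB4B was at 0.738, 0.172, 0.306 and 0.910 with erlotinib, against 0.138 in the scrambled library and 0.330 in the untreated library, so that 2 of the 4 lay below the untreated library. With all cells, the erlotinib libraries lay above both drug-free libraries for both genes, whereas TUBA1C, at 0.502, 0.612, 0.509 and 0.0256 against 0.0990 and 0.262, did not keep that order. After thinning to 1000 UMIs the order was lost for both genes. TUBB4B was then at 2.28, 0.182, 0.265 and 1.59 with erlotinib, against -0.0594 in the scrambled library and 0.414 in the untreated library. STMN1 was at 0.883, 0.328, 0.240 and 0.458 with erlotinib, against 0.121 in the scrambled library and 0.287 in the untreated library. The share of thinned cells with a TUBA1B UMI was 17.1% with CPI-455, 24.4% with KDM5A shRNA, 16.9% in the library labelled KDM5A and KDM5B shRNA and 21.9% for KDM5A cDNA, against 84.2% in the scrambled library and 68.2% in the untreated library. Before thinning these shares were 39.6%, 47.3%, 39.5%, 40.5%, 91.3% and 76.9%. Thinning left out 26 to 42 cells per erlotinib library, 41 scrambled and 344 untreated cells. In untreated cells the share lay below the 78.1% that an even spread of the same UMIs would give. In scrambled cells it was near the 84.8% of an even spread. With erlotinib an even spread would give 16.7%, 27.1%, 20.9% and 25.6%, in the order above. The shares had intervals of 11.7% to 23.7%, 19.9% to 29.4%, 10.8% to 24.7% and 14.4% to 31.0%, which include these values. So in the erlotinib libraries this share showed no uneven spread beyond counting error. It rested there on a mean of 0.183 to 0.316 TUBA1B UMIs per thinned cell. All PC9 cells should express tubulin, so the share given by free RNA in the droplets was not measured.

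**Figure D5:**
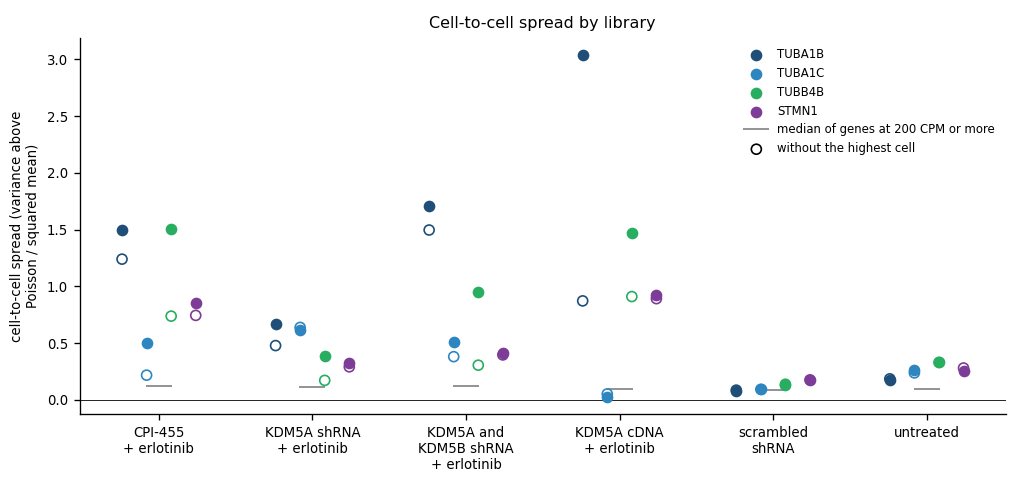
Cell-to-cell spread of 4 genes by library (filled points), the same without the cell with the most UMIs (open points), and the median of genes with at least 200 CPM (grey lines), with erlotinib libraries left. TUBA1B lies at 0.666 or more in the 4 erlotinib libraries and at 0.178 or less in the drug-free libraries.

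Other microtubule genes were counted in the same fit, against 13.5% of all genes tested called lower and 10.0% called higher. All 20 tested spindle proteins and mitotic kinesins were called lower, 12 of them also members of the G2/M list, with a median log2 fold of -2.91. TPX2, a spindle assembly factor, was at 17.5 to 72.1 CPM with erlotinib, against 318 CPM in the scrambled library and 381 CPM in the untreated library, with an edgeR log2 fold of -2.94 and an adjusted p of 0.00106. Of the 49 tested G2/M genes 43 were called lower, and of the 42 tested S phase genes all 42.

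Of the gamma-tubulin ring complex, which nucleates microtubules, 5 of 11 genes were called lower and none higher, including TUBG1, gamma-tubulin itself, with an edgeR log2 fold of -1.83 and an adjusted p of 0.00713, and MZT1, with -1.37 and 0.00545. NEDD1, which recruits the complex to the spindle, had an edgeR log2 fold of -0.92 with an adjusted p of 0.0414. Of 12 genes of the CCT chaperonin, which folds new tubulin and actin, and of prefoldin, which hands them over, 6 were called lower and none higher. CCT6A was at 577 to 678 CPM with erlotinib, against 1909 CPM in the scrambled library and 1291 CPM in the untreated library, with an edgeR log2 fold of -1.32 and an adjusted p of 0.00206. Of 6 tubulin folding cofactors, TBCB was called lower, with an edgeR log2 fold of -0.67 and an adjusted p of 0.0308, and 5 were not called.

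Of 13 genes of tubulin modification and autoregulation, 3 were called lower and 1 higher. TTL, the ligase that adds the C-terminal tyrosine to alpha tubulin, had an edgeR log2 fold of -1.67 with an adjusted p of 0.0161, and TTLL12, a relative of TTL, had -2.21 with an adjusted p of 0.000937. TTLL3, a glycylase, was the gene called higher, on 8.47 to 12.6 CPM with erlotinib, against 0.773 CPM in the scrambled library and 3.29 CPM in the untreated library, with an edgeR adjusted p of 0.0302. SCAPER, which takes part in tubulin messenger RNA decay, had an edgeR log2 fold of -1.18 with an adjusted p of 0.0318.

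Interphase microtubule-associated proteins were mixed, with 4 called higher and 1 lower of 19. DST, a large linker of cytoskeletal filaments, had the most UMIs of these and was at 457 to 643 CPM with erlotinib, against 188 CPM in the scrambled library and 361 CPM in the untreated library, with an edgeR log2 fold of 1.05 and an adjusted p of 0.0246. MAP2, a stabilising protein best known in neurons, was at 174 to 321 CPM with erlotinib, against 32.4 CPM in the scrambled library and 84.9 CPM in the untreated library, with an edgeR log2 fold of 2.07 and an adjusted p of 0.00546. MAP4, a stabilising protein of many tissues, had 0.81 with an edgeR adjusted p of 0.0320, and CKAP5, a polymerase that speeds filament growth, had -1.12 with an edgeR adjusted p of 0.0105. Of 22 transport kinesins, dynein and dynactin genes, 3 were called lower and 1 higher, with a median log2 fold of 0.10. KIF5B, a kinesin motor, had an edgeR log2 fold of -0.65 and an adjusted p of 0.0280, and DYNC1H1, the dynein heavy chain, had 0.69 and an adjusted p of 0.0385. Of 5 severing enzymes, FIGNL1 was called lower, with an edgeR log2 fold of -2.58 and an adjusted p of 0.000835. The other tubulin with enough counts, TUBD1, and the other stathmin, STMN3, were not called, with edgeR adjusted p-values of 0.786 and 0.0587. The lists were chosen with earlier results of these data known, and their counts are descriptions.

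The genes most like each member in level over the 6 libraries, by Pearson r of log2(CPM + 1) among 3638 genes with a mean of at least 50 CPM, were LSM5, an RNA-processing gene, for TUBA1B (r = 0.999), PEPD, a peptidase gene, for TUBA1A (r = 0.991), SERPINH1, a collagen chaperone gene, for TUBA4A (r = 0.999) and ATP5J for STMN1 (r = 0.993). The points share the split by erlotinib and the library totals. Over 822 untreated cells thinned to 1000 UMIs, the highest r among 2011 genes was 0.29 for TUBA1C with UBE2C, 0.25 for TUBB4B with PLK1, 0.21 for TUBA1B with HSP90AA1 and 0.17 for STMN1 with SMC4, all weak in sparse counts. UBE2C and PLK1 act in mitosis.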

How the data were processed

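Drop-seq tables of 6 PC9 libraries, 1 per condition, were used. The tables deposited by the authors give raw counts: UMIs for each symbol in each barcode, not normalized; per the submitters' processing notes STAR and FastQC were used with GRCh37.p13 (hg19), and the counting tool and its settings are not given in the sources used here. Barcodes with at least 500 UMIs and at most 20% mitochondrial UMIs were kept and their UMIs summed per library; no doublet caller was run. The 4 erlotinib libraries were tested against 2 drug-free libraries with edgeR 4.0.16 (TMM, filterByExpr, robust quasi-likelihood test, Benjamini-Hochberg adjustment over 10445 genes; common coefficient of variation 0.262), checked on simulated counts. The KDM5 manipulations enter the spread, and p-values measure only the spread between these libraries. Alternatives used DESeq2 1.42.0, limma 3.58.1, other scalings, filters and cells, and each library left out. Depth sets the precision: 3 counts, the limit a count of 0 allows, are 0.758 to 5.08 CPM. Intervals cover counting error only. All members are named; of each list, 1 or more of the 4 called genes with the most UMIs are, or of the genes with the most UMIs where none was called. GENCODE (GRCh38) gave gene types for 18052 symbols (68.9%) and coding identities. The members and lists were chosen with earlier results of these data known.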

Additional observations from a re-analysis of the deposited data

Results flagged for a closer look

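TUBB6 stood out in 1 of the 4 erlotinib libraries. On the log2 scale its level with KDM5A shRNA, 68.9 CPM, was separated from the nearest of the other 3 by 0.861 of the whole range of the 4 values, beyond the 95% limit of Dixon's test; the others lay at 33.1 to 36.6 CPM. Such a test picks out about 1 in 20 groups by chance, and 8 members were examined. One cell held 16 of the 110 TUBB6 UMIs of this library. Without it the level was 60.0 CPM, and the cell-to-cell spread was -0.01 in place of 3.17. The separation from the other libraries thus rests in part on this cell.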

How the results depend on the processing

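TUBA1B and TUBB4B kept their call in 18 of 19 alternatives each, TUBA1C in 16 of 19, TUBA1A in 12 of 18, STMN1 in 10 of 19 and TUBB2A in 9 of 16. The exception for TUBA1B and TUBB4B was cells with no cycle UMIs, of which the scrambled library had 1; there TUBB4B was at 0.13 on the log2 scale and TUBA4A at 0.92, against -1.99 and -0.32 in the reported fit, and edgeR called 0 members lower and 0 higher, 0 genes of the microtubule lists in either direction and 6 genes of all lower and 13 higher. The reported fit called 5 members lower and 1 higher, against 3 and 1 after thinning to 1000 UMIs, 2 and 0 in the lowest 25% of cells by cycle share (chosen after seeing the data; TUBA4A 0.0049), 3 and 0 in transduced libraries alone, 2 and 1 with the pseudogene split as a term (TUBA4A 0.42) and 5 and 0 over all barcodes; leaving out 1 library gave 3 to 5 and 0 to 1. Of the microtubule lists, 40 genes were called lower and 6 higher, against 26 and 3 thinned, 7 and 1 in low-cycle cells and 25 and 2 with the split term, and 28 to 39 and 1 to 5 without 1 library. Over all genes, 1412 were called lower and 1046 higher, against 531 and 453 thinned, 245 and 273 in low-cycle cells, 856 and 479 in transduced libraries, 611 and 490 with the split term, and 860 to 1341 and 500 to 1176 without 1 library. In the reported fit, spindle proteins and mitotic kinesins made up 20 of the 40 microtubule genes called lower. Of these 20, 12 are also on the G2/M list. The shares of all genes tested that were called lower and higher were 13.5% and 10.0% in that fit. In low-cycle cells they were 5.32% and 5.92%. The log2 ratio of TUBA4A for CPI-455 over KDM5A cDNA was 0.067 thinned, against -0.48. Fewer cells and libraries enter several of these, and with the split term KDM5A shRNA was the only erlotinib library that set the erlotinib fold. Otherwise the cause was not tested. No paired analysis was possible because each condition has 1 library and the labels give no replicate numbers. Depth limits TUBB2A and TUBA1A, with 4 to 38 UMIs in some libraries.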
